A study of Mus musculus and Homo sapiens with 180 samples.

Results

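The response of MV4;11 cells to a Menin inhibitor was measured in a PCGF1 knockout (KO) clone. MV4;11 is a human acute myeloid leukaemia line in which KMT2A (MLL) is fused to AFF1. The 6 libraries are 3 of the clone with the Menin inhibitor VTP50469 and 3 of the same clone with DMSO, chosen by the clone's column name, out of 180 samples in the series. According to the labels, VTP50469 was given at 500 nM for 48 h and the DMSO cells are labelled 72 h, so drug and time differ together and cannot be told apart. MV4;11 cells with the control guide Safe3 and the same 2 treatments, 6 libraries, served for comparison, and 6 further libraries of both genotypes with the DOT1L inhibitor SGC0946 (5 μM, 72 h) entered the statistical model for its estimate of spread. All of these cells carry Cas9 and a guide. PCGF1 KO cells of a further leukaemia line, MOLM13, with VTP50469 and DMSO under the same labels of dose and time, 6 libraries, are set beside the clone at the end. The PCGF1 KO libraries come from 1 clone, whereas the methods describe polyclonal populations, so that an effect of PCGF1 loss and a trait of the clone cannot be told apart.

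Menin, the product of MEN1, binds the amino-terminal part of MLL that every MLL fusion keeps, and tethers the fusion to chromatin at genes such as MEIS1 and the HOXA cluster. VTP50469 occupies the pocket through which Menin holds MLL. PCGF1 is a subunit of PRC1.1, a variant Polycomb complex that contains BCOR, is brought to unmethylated CpG islands by KDM2B and deposits ubiquitin on histone H2A, a mark of repressed promoters. The study asked how MLL leukaemia cells that lack PRC1.1 respond to Menin and DOT1L inhibition.

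The clone's name gives guide G1, which was taken to be the first of the study's PCGF1 guides. Its sequence is shown because it defines the edited site, with the adjacent PAM of the genome in capitals.
PCGF1 sgRNA1: ggggcagtacttgctagttTGG
The 19 bases of the guide match 1 site of GRCh38, chr2:74506835-74506853 on the plus strand, in coding exon 3 of 9 of PCGF1 (chr2:74505043-74507695, minus strand). PCGF1 was at 1.88, 1.65 and 5.16 CPM (read counts scaled to a common library size, with the trimmed mean factors of TMM) in the KO DMSO libraries and at 2.56, 5.45 and 2.23 CPM with VTP50469. In control DMSO libraries it was at 4.9, 3.68 and 7.35 CPM. The range of the KO DMSO libraries overlaps that of the control libraries, and the transcript was not called lower (log2 difference −0.93, SE 0.40, edgeR adjusted p = 0.112). Without KO DMSO replicate 3 the difference was −1.59 (edgeR adjusted p = 0.0115). Reads of a 3′ library come from the far end of the transcript, so these values check neither the edit nor the protein, and the libraries are called PCGF1 KO by their label.

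The 6 PCGF1 KO libraries held 3043816 to 4743026 counts on annotated features. Up to 3 counts, or 0.548 to 0.854 CPM, remain possible for a gene listed at 0, with counting error as the only error considered. KO DMSO replicate 3 stood apart in depth and composition, but all KO DMSO libraries differed from each other. The chi-square of counts per degree of freedom was 18.1 (replicates 1 and 2), 61.5 (1 and 3) and 28.4 (2 and 3). Between KO VTP50469 libraries it was 2.5 to 5.87. The 2 most abundant features, which carry no symbol in the annotation used, took 37.4%, 28.7% and 19.1% of the counts in KO DMSO replicates 1, 2 and 3 and 43% to 49.6% with VTP50469, and mitochondrial mRNAs took 2.13% to 3.61% and 1.25% to 1.47%. The part of these shares in the results was not tested. All 10 markers fixed for MV4;11 passed the filter, summing to 507 to 537 CPM in KO DMSO and 446 to 501 CPM in KO VTP50469 libraries. LYZ among them was near the floor in KO DMSO libraries, and with VTP50469 3 of the 10 rose and 4 fell, so the sum is a coarse check. Markers of other lineages stayed low, at 1.46 to 4.69 and 2.9 to 4.56 CPM summed over 11 erythroid genes (8 at 0 in both groups), 2.11 to 2.92 and 0.711 to 1.99 CPM over 7 megakaryocyte genes (4 at 0), 8.34 to 11 and 7.12 to 9.24 CPM over 8 T and NK cell genes (3 at 0) and 3.29 to 5.63 and 2.67 to 3.32 CPM over 9 epithelial and fibroblast genes (4 at 0). Of 8 B lymphocyte markers, IGLL1 alone gave most of the summed 110 to 175 and 32.2 to 50.1 CPM.

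**Figure D1:**
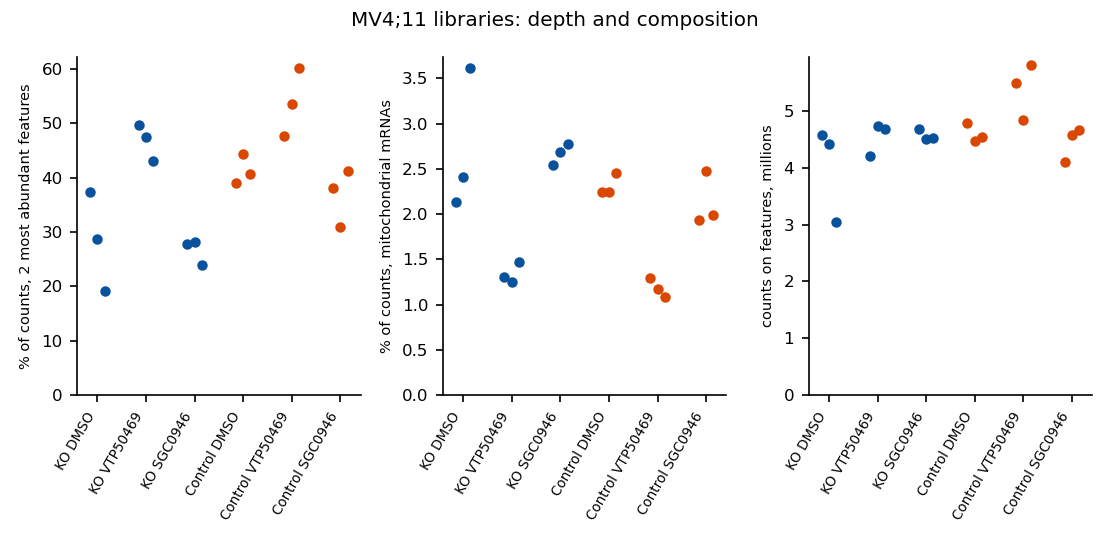
Share of counts on the 2 most abundant features (left, %), share on mitochondrial mRNAs (middle, %) and counts on features (right) in the 18 MV4;11 libraries, 1 point per library, with PCGF1 KO in blue and control in orange. KO DMSO replicate 3 has the lowest share of the 2 features (19.1%), the highest share of mitochondrial mRNAs (3.61%) and the lowest total (3043816).

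The response of the PCGF1 KO clone to VTP50469 ran in both directions, with MEF2C, MEIS1 and PBX3 among the genes that fell and CLEC12A, ST3GAL6 and CYBB among those that rose. Of 11252 genes tested, 1143 (10.2%) were higher and 1274 (11.3%) lower with VTP50469 than with DMSO at an adjusted p under 0.05, 21.5% in all, and 457 (4.06%) and 356 (3.16%) of them also changed by more than 1 on the log2 scale. In control cells 1190 genes (10.6%) rose and 1174 (10.4%) fell, 21% in all. The genes higher in both genotypes numbered 642, which is 56.2% of those of the PCGF1 KO clone and 53.9% of those of control cells, and 612 were lower in both, 48% and 52.1%. Only 2 genes higher and 16 lower in the clone had the opposite call in control cells. Scaling by library size alone, without TMM, moved the median log2 fold change of all genes from −0.01 to −0.451 and turned the calls into 367 higher and 4544 lower (7.47% of calls higher against 47.3%), and fold changes below are relative to the TMM-scaled median. With the 6 libraries fitted on their own, 629 genes were higher and 712 lower. Counts of list members below are to be read beside the shares of all genes. These were 10.2% higher and 11.3% lower in the clone and 10.6% and 10.4% in control cells.

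The transcripts that mark MLL fusion activity fell steeply in the PCGF1 KO clone. MEIS1 (chr2:66433452-66573869), a TALE homeobox factor that partners HOXA9 in leukaemia, was at 33.4, 32.2 and 34.5 CPM with DMSO and 3.42, 3.08 and 4.01 CPM with VTP50469, and the groups lie far apart (log2 fold change −3.23, SE 0.21, edgeR adjusted p = 1.82e-13). PBX3, which binds DNA together with MEIS1 and HOX proteins, went from 61.3, 85.9 and 84.9 to 10.3, 14.7 and 16.9 CPM, again without overlap (−2.45, SE 0.17, adjusted p = 4.13e-13). In control cells MEIS1 fell by 4.19 and PBX3 by 2.80 on the log2 scale. The differences of response between the genotypes, 0.95 (SE 0.42, adjusted p = 0.308) for MEIS1 and 0.35 (SE 0.26, adjusted p = 0.62) for PBX3, did not pass the threshold. Of the 5 TALE genes tested, MEIS1 and PBX3 fell and none rose, and the median log2 fold change was −0.40 in the clone and −0.64 in control cells, beside −0.01 and 0.01 over all genes tested.

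Of 11 HOXA genes, 4 were tested and 3 fell, while the others had few or no reads. HOXA10, a posterior HOX factor of myeloid progenitors, was at 90.7, 72.6 and 71.3 CPM with DMSO and 29.3, 25.6 and 27.6 CPM with VTP50469 (log2 fold change −1.51, SE 0.15, edgeR adjusted p = 1.47e-09). HOXA11 went from 56.7, 48.1 and 49.2 to 16.8, 22.8 and 21.2 CPM (−1.33, SE 0.15, adjusted p = 2.37e-08). HOXA9, a central effector of MLL fusions, went from 23.1, 27.8 and 24.9 to 14.2, 16.1 and 15.8 CPM (−0.71, SE 0.17, adjusted p = 0.00179). All 3 genes had DMSO and VTP50469 libraries that did not overlap, as did 3469 (30.8%) of all genes tested, 1666 (14.8%) of them lower and 1803 (16%) higher with VTP50469. HOXA13 had a log2 fold change of 0.76 (adjusted p = 0.305). In control cells HOXA10 had −1.08, HOXA11 −1.497 and HOXA9 −0.23 (adjusted p = 0.403), but the HOXA9 response was not shown to differ between the genotypes (−0.49, SE 0.24, adjusted p = 0.39).

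Of 36 genes listed as MLL fusion targets, 33 were tested. The list includes genes that the study named from these cells, so its direction is not independent evidence. VTP50469 lowered 18 of them and raised 2 in the PCGF1 KO clone, with a median log2 fold change of −0.78, and lowered 16 and raised 5 in control cells, with a median of −0.75. MEF2C, a MADS-box factor of myeloid progenitors, was at 187, 135 and 139 CPM with DMSO and 3.7, 2.61 and 3.34 CPM with VTP50469 (log2 fold change −5.58, SE 0.19, edgeR adjusted p = 3.79e-20), the largest fall with a symbol among genes at 10 CPM or more in the DMSO group. In control cells MEF2C fell by 5.95. BCL2, which restrains apoptosis, went from 112, 130 and 115 to 28.5, 40.5 and 38.1 CPM (−1.73, SE 0.12, adjusted p = 7.24e-13). FLT3, a receptor tyrosine kinase of progenitors, went from 141, 122 and 134 to 51.6, 53.6 and 48.6 CPM (−1.37, SE 0.11, adjusted p = 1.34e-11). CDK6, a kinase of the G1 phase, went from 388, 404 and 417 to 232, 244 and 228 CPM (−0.78, SE 0.09, adjusted p = 2.94e-08). In none of these 4 genes did DMSO and VTP50469 libraries overlap, which for MEF2C was a condition of being named among the largest falls. Of all genes tested, 1666 (14.8%) were lower without overlap. EMB, an embigin surface protein (−2.12), CPEB2, an RNA-binding regulator of translation (−2.999), FOXP1, a forkhead factor (−1.56), NRIP1, a nuclear receptor cofactor (−1.22), ELF1, an ETS factor (−1.19), and JMJD1C, a JmjC-domain protein (−0.996), fell as well. SENP6, a SUMO protease (0.62), and PTPRC, the CD45 phosphatase of leukocytes (0.58), rose. MYB, a factor of haematopoietic progenitors, had a log2 fold change of −0.21 (adjusted p = 0.0863; called lower without KO DMSO replicate 3, adjusted p = 0.0255). The target SGIP1 had too few reads for a test.

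**Figure D2:**
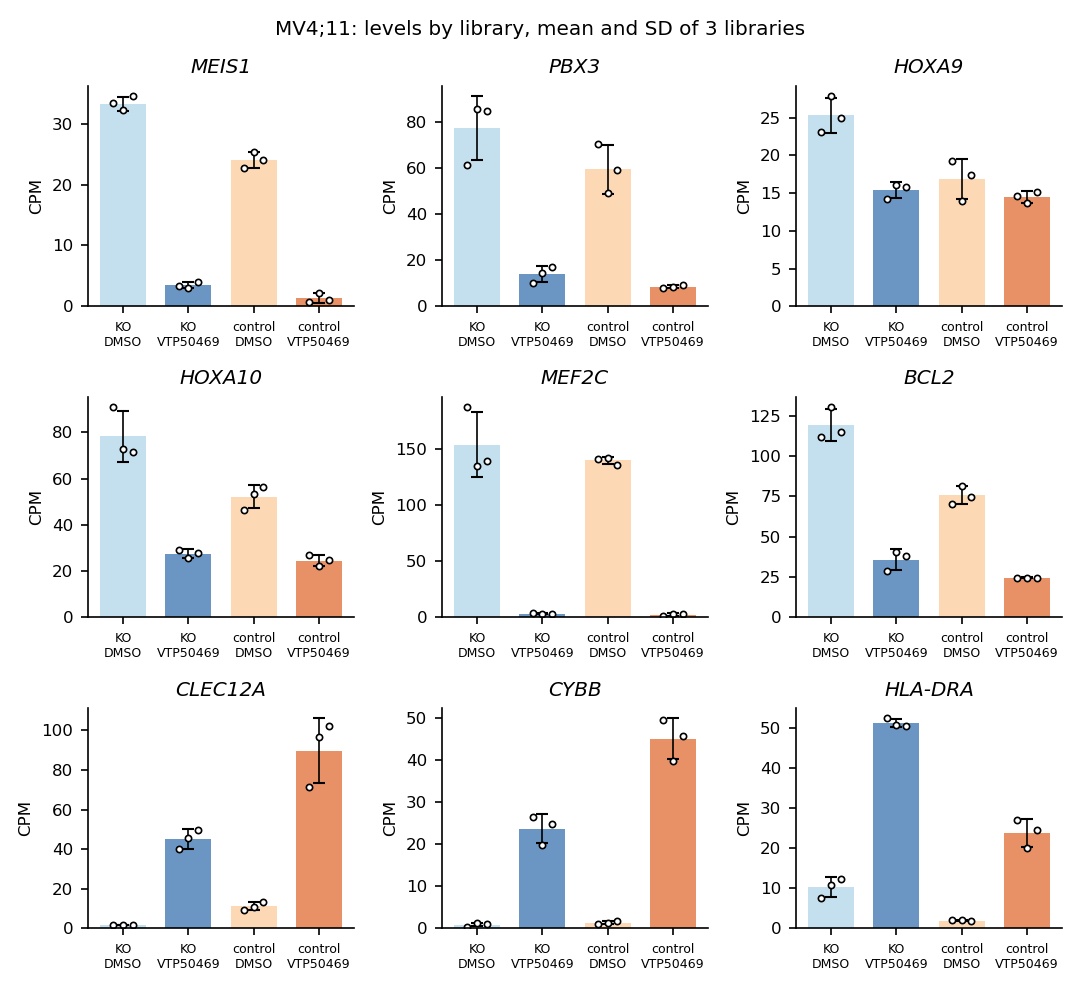
Level in CPM of 9 genes in each MV4;11 library (points) with group mean (bars) and SD (error bars), n = 3, for PCGF1 KO (blue) and control cells (orange) with DMSO (pale) and VTP50469 (dark). MEIS1, PBX3, HOXA10, MEF2C and BCL2 are lower and CLEC12A, CYBB and HLA-DRA higher with VTP50469 in both genotypes.

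The size of the response differed between the PCGF1 KO clone and control cells for a minority of genes. In a test of the interaction, 76 genes (0.675%) responded more positively and 139 (1.24%) more negatively in the clone, 1.91% of 11252 in all. The targets IGF2BP2, an oncofetal RNA-binding protein, REEP3 and RUNX2 were among them. IGF2BP2 was at 151, 145 and 104 CPM with DMSO and 32.5, 41 and 44.6 CPM with VTP50469 in the clone, while control cells had 162, 158 and 162 and 19.3, 21.5 and 20.4 CPM. Its fall was −1.75 in the clone and −2.98 in control cells (difference 1.23, SE 0.19, edgeR adjusted p = 0.000164). REEP3, a protein of the endoplasmic reticulum, fell by 1.69 and by 2.39 (difference 0.70, SE 0.19, adjusted p = 0.0478, up to 0.152 when 1 library was left out, above the threshold in 7 of 12 such fits). RUNX2, a Runt factor, fell by 2.24 and by 0.83 (difference −1.41, SE 0.33, adjusted p = 0.0168, but 0.073 without KO VTP50469 replicate 3 and 0.0555 without control VTP50469 replicate 2). The count of genes with a different response rests on KO DMSO replicate 1, without which it was 310 more positive and 337 more negative, and in the 12 libraries fitted on their own it was 36 and 85.

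**Figure D3:**
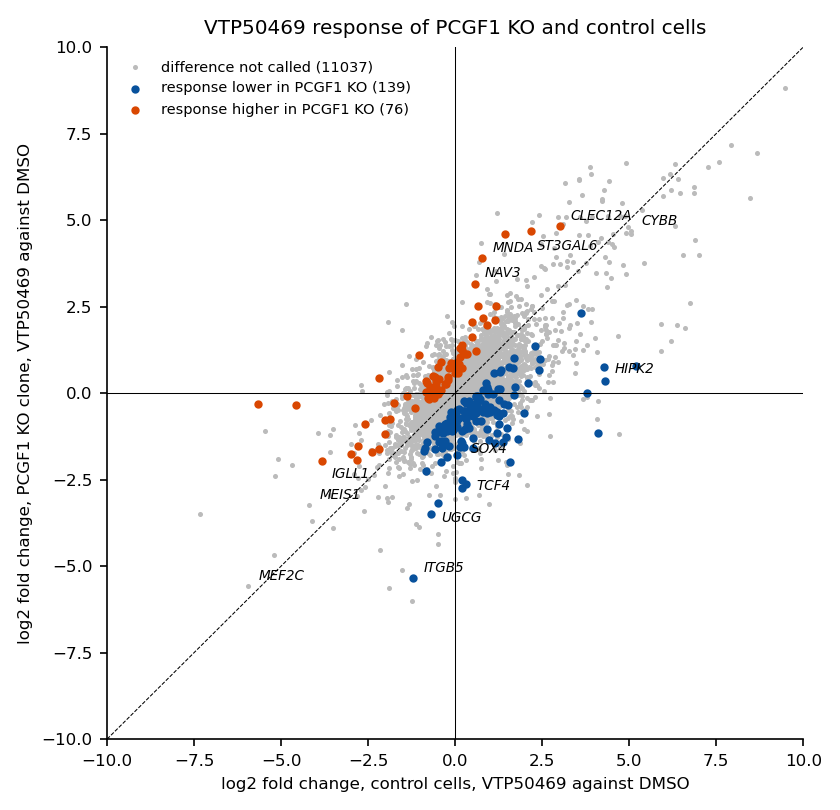
Log2 fold change with VTP50469 against DMSO in control cells (horizontal axis) and in the PCGF1 KO clone (vertical axis) for 11252 genes, with the dashed line at equal response. Of the genes, 76 (orange) lie above and 139 (blue) below the line with a difference past the threshold, among them TCF4 (0.30 in control cells, −2.63 in the clone) and NAV3 (0.56 and 3.16).

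TCF4, UGCG and SOX4 fell with VTP50469 in the PCGF1 KO clone and were higher there than in control cells with DMSO, in comparisons that share the DMSO libraries of the clone. TCF4 (chr18:55222185-55664787), an E-protein transcription factor of plasmacytoid dendritic cells and lymphoid precursors, was at 279, 262 and 297 CPM with DMSO and 46.4, 44.3 and 44.8 CPM with VTP50469. In control cells it was at 31.5, 24.3 and 34.3 and at 32.8, 36.5 and 42.2 CPM. The fall in the clone was −2.63 (SE 0.11, edgeR adjusted p = 3.14e-18), and the value in control cells was 0.30 (adjusted p = 0.0916), a difference of −2.92 (SE 0.17, adjusted p = 9.34e-14). UGCG, the enzyme that makes glucosylceramide, went from 222, 232 and 209 to 19.1, 18 and 21.6 CPM in the clone and from 20, 17.4 and 17.4 to 11, 8.36 and 14.6 CPM in control cells. Its log2 fold changes were −3.49 and −0.69, with a difference of −2.80 (SE 0.21, adjusted p = 8.36e-11). SOX4, a SOX factor of progenitor cells, went from 705, 621 and 692 to 234, 244 and 212 CPM, against 71.9, 82.5 and 78 and then 83.7, 86.6 and 86.1 CPM in control cells. The SOX4 log2 fold change of −1.55 differed from the 0.14 (adjusted p = 0.297) of control cells by −1.69 (SE 0.12, adjusted p = 6.08e-11). Between the DMSO groups, where 1044 genes (9.28%) were higher and 784 (6.97%) lower in the clone, TCF4 was higher by 3.21, UGCG by 3.59 and SOX4 by 3.12 on the log2 scale. Unlike TCF4 and UGCG, whose KO VTP50469 libraries stood near the control libraries, SOX4 with VTP50469 remained at 230 ± 16 CPM against 77.5 ± 5.31 CPM (SD, n = 3) in control DMSO libraries.

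Further genes of this kind include a cell cycle inhibitor, signalling genes and surface receptors. CDKN2C, which encodes the p18 inhibitor of CDK4 and CDK6, was at 117, 103 and 111 CPM with DMSO and 35, 27 and 20.9 CPM with VTP50469, and at 28.2, 31.7 and 26.3 and 22.5, 22.8 and 18.8 CPM in control cells (difference of response −1.58, SE 0.20, edgeR adjusted p = 7.72e-06). F2RL3, a thrombin receptor, went from 17.9, 21.6 and 17.1 to 1.99, 3.32 and 0.891 CPM (difference −2.69, SE 0.50, adjusted p = 0.00231). PTK2, the focal adhesion kinase, went from 13.6, 11.9 and 9.85 to 3.99, 4.98 and 4.01 CPM in the clone, and control cells had 0.965 ± 0.0669 and 2.17 ± 0.516 CPM (difference −2.57, SE 0.50, adjusted p = 0.00318). In these 3 genes the clone's DMSO libraries lay above all its VTP50469 libraries, as in 1666 (14.8%) of all genes tested. For F2RL3 this was a condition of being named among the largest falls. RUNX3, a Runt factor of lymphoid and myeloid cells, fell by 0.86 (difference −0.63, SE 0.13, adjusted p = 0.00406), and ID2, an inhibitor of E-proteins such as TCF4, fell by 0.48 (difference −0.52, SE 0.14, adjusted p = 0.0429, above the threshold in 9 of 12 fits without 1 library, up to 0.144). IRF8, a factor of monocytes and dendritic cells, went from 48.2, 41.5 and 64.9 to 19.9, 19.7 and 17.8 CPM (−1.42; difference −0.94, SE 0.23, adjusted p = 0.0223, above the threshold in 5 of 12 fits without 1 library, up to 0.0858). CCR6, a chemokine receptor, fell by 2.69, and its difference of response was −2.14 (SE 0.65, adjusted p = 0.0912). PRL, the prolactin gene, was at 46.9, 56.7 and 60 CPM with DMSO and 1.99, 1.66 and 1.11 CPM with VTP50469 in the clone (−5.11, SE 0.24, adjusted p = 7.6e-17). With 4 and 1 counts of PRL over 3 libraries in the control groups, its difference of response could not be judged (−3.58, SE 2.10, adjusted p = 0.502). SH3BGRL3 fell with a wide spread, from 4.8, 7.31 and 18.1 to 1.71, 1.19 and 2.23 CPM, with the highest value in KO DMSO replicate 3 (difference −2.70, SE 0.61, adjusted p = 0.0115, 0.0526 without control VTP50469 replicate 1). ITGB5, an integrin subunit, had 115 counts with DMSO and 2 with VTP50469, a ratio of 0.0207 with a 95% counting interval of 0.00248 to 0.0764, and its difference of response (−4.15, SE 1.08, adjusted p = 0.0346) was above the threshold in 9 of 12 fits without 1 library, up to 0.415 without control VTP50469 replicate 1.

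The genes with the largest more positive response in the PCGF1 KO clone are given with their levels in both genotypes, side by side. The difference of response and the comparison of the DMSO groups share the DMSO libraries of both genotypes, with opposite sign. They are therefore not independent, and neither is support for the other. Of the 215 genes with a different response, 165 (76.7%) were also called between the DMSO groups, 158 of them with the opposite sign. MNDA, a nuclear antigen of myeloid cells, was at 0.209, 1.1 and 0.938 CPM with DMSO and 6.27, 14 and 14 CPM with VTP50469, and at 33.3, 32.4 and 35.9 and 56, 52.4 and 65.1 CPM in control cells. It rose by 3.90 in the clone and by 0.77 in control cells (difference 3.13, SE 0.42, edgeR adjusted p = 2.41e-05). NAV3, a microtubule-associated navigator protein, went from 9.8, 11.2 and 5.86 to 70.6, 88.2 and 85.3 CPM, against 85.2, 95.5 and 83.6 and then 118, 136 and 136 CPM in control cells (difference 2.60, SE 0.20, adjusted p = 8.36e-11). With VTP50469 the clone's NAV3 libraries overlapped those of control cells with DMSO, while its MNDA libraries stayed below them. ST3GAL6, a sialyltransferase, went from 1.04, 1.46 and 1.17 to 34.7, 33.7 and 28.5 CPM in the clone and from 10.8, 11.1 and 7.8 to 39.4, 46.5 and 49.1 CPM in control cells (4.67 and 2.18, difference 2.49, SE 0.32, adjusted p = 7.94e-06). CLEC12A, an inhibitory lectin receptor of myeloid cells and a leukaemia surface antigen, went from 1.67, 1.46 and 1.64 to 39.9, 45.5 and 49.9 CPM in the clone and from 9.4, 10.8 and 13.4 to 71.3, 96.7 and 102 CPM in control cells (4.81 and 3.00, difference 1.81, SE 0.31, adjusted p = 0.000736). In all 4 genes every VTP50469 library of the clone was above every DMSO library, as in 1803 (16%) of all genes tested. For ST3GAL6 and CLEC12A this was a condition of being named among the largest rises. VIT, which encodes vitrin, had 2 counts with DMSO and 48 with VTP50469 in the clone, a ratio of 28.5 with a 95% counting interval of 7.48 to 242 (difference of response 3.14, SE 0.71, adjusted p = 0.0115). CORO2A, a coronin, rose by 2.52 (difference 1.87, SE 0.45, adjusted p = 0.0192, 0.0956 without KO DMSO replicate 2). IGLL1, a surrogate light chain gene, fell less in the clone, from 145, 107 and 171 to 30.5, 28.7 and 48.1 CPM (−1.97 against −3.84, difference 1.88, SE 0.27, adjusted p = 4.38e-05). HIPK2, a nuclear kinase, showed the reverse order, at 5.63, 10.4 and 11.3 and then 16.8, 13.7 and 15.6 CPM in the clone and 0.204, 0.737 and 0.446 and then 7.2, 10 and 10.5 CPM in control cells (0.75 and 4.28, difference −3.52, SE 0.55, adjusted p = 0.000173). The HIPK2 rise in the clone, at an adjusted p of 0.0228, was not called without KO VTP50469 replicate 1 (0.0701), KO VTP50469 replicate 3 (0.0624) or KO DMSO replicate 1 (0.119).

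**Figure D4:**
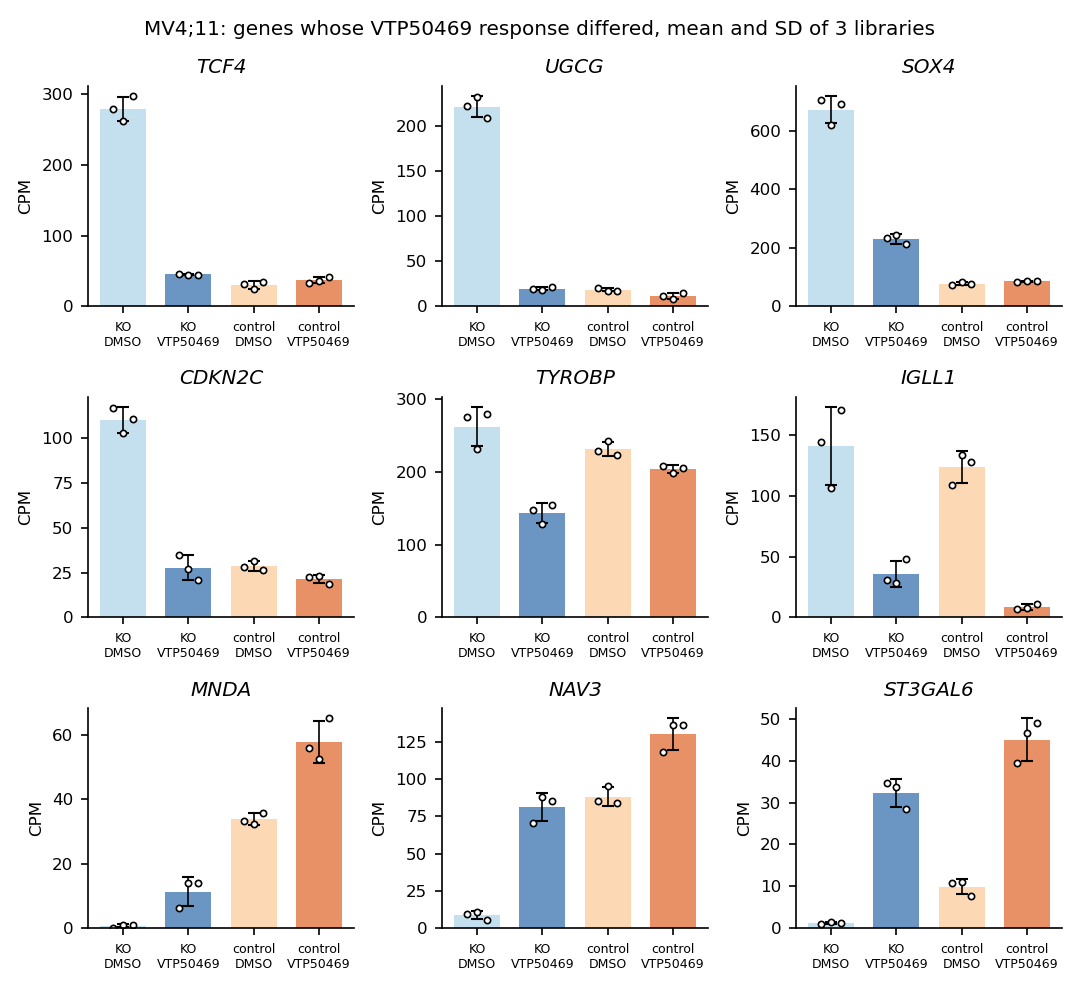
Level in CPM of 9 genes whose response differed between genotypes, drawn as points per library with group mean and SD (n = 3), for PCGF1 KO (blue) and control cells (orange) with DMSO (pale) and VTP50469 (dark). TCF4, UGCG, SOX4 and CDKN2C are highest in KO DMSO libraries, and MNDA, NAV3 and ST3GAL6 lowest there.

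PRC1.1 is recruited to CpG-rich promoters, so a stretch is shown for UGCG, which fell, and for CLEC12A and ST3GAL6, which rose. It holds the 120 bases upstream of the annotated start of the canonical transcript (GRCh38, read in the direction of the gene), with each CG in capitals. These genes are single examples and do not stand for their groups. The annotated genes of CLEC12A and ST3GAL6 begin further upstream, at chr12:9951316 and chr3:98732236. Reads of a 3′ library do not show which start was used.
UGCG, chr9:111896694-111896813, plus strand: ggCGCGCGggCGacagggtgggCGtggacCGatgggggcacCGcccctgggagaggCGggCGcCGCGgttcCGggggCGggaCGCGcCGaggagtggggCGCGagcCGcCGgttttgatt
CLEC12A, chr12:9971289-9971408, plus strand: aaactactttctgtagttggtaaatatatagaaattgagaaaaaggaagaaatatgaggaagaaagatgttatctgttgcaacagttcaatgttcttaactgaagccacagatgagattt
ST3GAL6, chr3:98763220-98763339, plus strand: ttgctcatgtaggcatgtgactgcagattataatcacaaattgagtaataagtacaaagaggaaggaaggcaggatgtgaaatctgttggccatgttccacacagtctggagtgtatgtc
The UGCG stretch holds 20 CG, and the CLEC12A and ST3GAL6 stretches hold 0. In the window from 250 bases before to 50 after the start, the counts of CG were 48, 0 and 1 in the same order. The window had a median of 27 CG over 10987 tested genes with an annotated start, and 88.3% of them had 10 or more. Among 1109 genes higher in the PCGF1 KO clone with VTP50469 the median was 25 and 80.3% had 10 or more, and among 1262 lower genes the values were 28 and 88.7%. Genes not called had 27 and 89.3%. With protein-coding genes alone, 86.6% of the higher, 91% of the lower and 94% of the genes not called had 10 or more. Of 134 genes with a more negative response in the clone than in control cells, 67.9% had 10 or more, and of 76 with a more positive response 86.8%. These shares are descriptions without a test, and a count of CG does not show binding.

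Myeloid maturation genes rose in part. Of 16 monocyte and macrophage genes tested, of 33 listed (9 of them at 0 in both groups), 4 rose in the PCGF1 KO clone and 2 fell, with a median log2 fold change of 0.45, and in control cells 12 rose and none fell, with a median of 0.76. The share lower in the clone is near the 11.3% of all genes. With library size scaling 4 were higher and 4 lower in the clone. CYBB, the gp91 subunit of the phagocyte oxidase, listed with tertiary granule genes, was at 0.417, 1.28 and 0.938 CPM with DMSO and 26.5, 19.9 and 24.7 CPM with VTP50469 (4.68, SE 0.30, edgeR adjusted p = 1.37e-13). LYZ, lysozyme, had 4 counts with DMSO over 3 libraries and 4.27, 6.87 and 5.79 CPM with VTP50469 (4.25, SE 0.50, adjusted p = 8.76e-08). TLR4, the lipopolysaccharide receptor, rose by 1.99 and TLR2, a receptor for bacterial lipoproteins, by 0.99. The 2 that fell encode signalling adaptors of immune receptors. TYROBP was at 275, 232 and 280 CPM with DMSO and 147, 128 and 154 CPM with VTP50469 (−0.88, SE 0.09, adjusted p = 1.06e-08), and FCER1G went from 18.4, 21.6 and 32.6 to 11.4, 6.4 and 9.8 CPM (−1.39, SE 0.21, adjusted p = 7.76e-06). Neither had overlapping groups, as was so for 1666 (14.8%) of all genes tested in this direction. Their responses differed from control cells, where TYROBP had −0.18 and FCER1G 0.16, by −0.70 (SE 0.13, adjusted p = 0.00221) and −1.55 (SE 0.32, adjusted p = 0.00593).

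Granule genes of granulocyte precursors moved unevenly. Among 9 primary granule genes tested of 13, 4 rose and 1 fell, with a median log2 fold change of 0.22, and with library size scaling 1 was higher and 2 lower. MS4A3, a membrane protein of granulocyte and monocyte precursors, was at 15.6, 20.5 and 22.5 CPM with DMSO and 71.5, 75.6 and 83.6 CPM with VTP50469 (1.98, SE 0.13, edgeR adjusted p = 1.37e-13), and the difference from its rise of 0.91 in control cells was 1.07 (SE 0.17, adjusted p = 0.000173). MPO, myeloperoxidase, rose by 0.65, which was not called without KO VTP50469 replicate 1 (adjusted p = 0.0587), and without that library 2 of the primary granule genes were called higher. PRTN3, proteinase 3, fell by 0.71 and had 540, 303 and 552 CPM with DMSO and 293, 295 and 266 CPM with VTP50469. Of 19 secondary and tertiary granule genes only 4 were tested, and 10 were at 0 in both groups. SLPI, a protease inhibitor of that list, had 3 counts with DMSO and 40 with VTP50469, a ratio of 15.9 with a 95% counting interval of 5.05 to 80.1.

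Transcription factors and progenitor genes fell more than they rose. Of 17 myeloid transcription factors tested of 23, 9 fell and 2 rose, with a median log2 fold change of −0.46 against −0.22 in control cells, where 4 fell and 2 rose. The falls include MEF2C, TCF4, RUNX2, IRF8, RUNX3, ID2 and MEF2D, a relative of MEF2C at 35, 52.8 and 102 CPM with DMSO and 26.8, 29.4 and 25.6 CPM with VTP50469 (−1.20, SE 0.22, edgeR adjusted p = 0.000116). EGR1, an immediate early factor, fell by 1.47. CEBPD, a factor of myeloid maturation, rose by 0.86, and SPI1 (PU.1), the master factor of the myeloid lineage, had 0.01. The interaction was negative for 5 of the 17 factors and positive for none. The number of factors called higher was 1 without KO VTP50469 replicate 1 or 2 or KO DMSO replicate 1 or 2. Among 9 stem and progenitor genes tested of 25, 4 fell and none rose, with a median of −0.41.

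Most MHC class II genes tested rose in both genotypes. Of 6 tested genes of this list, 4 rose and none fell in the clone, with a median log2 fold change of 1.04, and 5 rose in control cells, with a median of 2.13. HLA-DRA was at 7.51, 10.8 and 12.4 CPM with DMSO and 52.4, 50.7 and 50.6 CPM with VTP50469 (2.32, SE 0.16, edgeR adjusted p = 9.87e-13). Its rise in control cells was 3.61 (difference −1.29, SE 0.32, adjusted p = 0.0218, above the threshold in 5 of 12 fits without 1 library, up to 0.0848). CD74, the invariant chain, was at 156, 126 and 142 and then 220, 211 and 244 CPM (0.67 in the clone, 1.32 in control cells, difference −0.65, SE 0.15, adjusted p = 0.0128, 0.0692 without control DMSO replicate 3). HLA-DRB1, whose reads can be shared with near-identical paralogues, rose by 1.82. Of 16 interferon response genes tested of 25, 6 rose and none fell, with a median of 0.40 in the clone and 0.38 in control cells, though with library size scaling 2 were higher and 2 lower. IFIH1, a sensor of viral RNA, rose by 1.35 and BST2, tetherin, by 0.54. XAF1, an interferon-induced antagonist of XIAP, was at 27.1, 26.9 and 31.4 and then 62.4, 55 and 69.3 CPM (1.13, SE 0.12, adjusted p = 1.14e-08; difference from control cells 0.80, SE 0.17, adjusted p = 0.00518).

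Some lysosomal genes rose in both genotypes, and the responses of PSAP and CTSB differed between the genotypes. Of 29 tested, 6 rose and 1 fell, with a median log2 fold change of 0.17, against 16 higher and none lower in control cells, with a median of 0.56. With library size scaling 3 were higher and 9 lower in the clone. ASAH1, acid ceramidase, went from 40.9, 37.5 and 40.1 to 85.4, 87 and 77.8 CPM (1.08, SE 0.11, edgeR adjusted p = 6.96e-09). PSAP, the precursor of the saposins, rose by 0.75 in the clone and by 1.53 in control cells (difference −0.78, SE 0.14, adjusted p = 0.00101). CTSB, cathepsin B, had −0.14 and 0.64 (difference −0.78, SE 0.14, adjusted p = 0.00157). The number called lower was 2 without any of the 3 KO DMSO libraries.

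Most regulators of the G1 phase that were tested fell. Of 9 D-type cyclin, CDK4/6 and CDK inhibitor genes tested of 12, 7 fell and none rose, with a median log2 fold change of −0.78 in the clone and −0.42 in control cells. CCND3, cyclin D3, was at 227, 171 and 142 CPM with DMSO and 75.8, 83.9 and 68.4 CPM with VTP50469 (−1.24, SE 0.13, edgeR adjusted p = 5.21e-09), beside the falls of CDK6 and CDKN2C given above. CDKN1A, the p21 inhibitor, went from 53.8, 53 and 51.1 to 26.2, 21.3 and 22.1 CPM (−1.19 in the clone, −2.02 in control cells, difference 0.83, SE 0.19, adjusted p = 0.014, 0.058 without KO VTP50469 replicate 1). Of 27 S phase and mitosis genes, 3 fell and none rose, with a median of −0.11, a share lower near the 11.3% of all genes, and with library size scaling 23 were lower and none higher. In control cells 11 fell, with a median of −0.29. MCM7, a subunit of the replicative helicase, fell by 0.40 and CDC20, an activator of the anaphase-promoting complex, by 0.61. Without KO DMSO replicate 1, 6 of these genes were called lower and 1 higher.

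Among apoptosis genes, 4 of 14 tested members of the list built around the BCL2 family fell and none rose, with a median log2 fold change of −0.26. Besides BCL2, BCL2L11 (BIM), a protein that opposes BCL2, went from 36.1, 35.6 and 40.6 to 17.1, 14.7 and 11.4 CPM (−1.39, SE 0.18, edgeR adjusted p = 5.11e-07). BMF, a further BH3-only gene, had −0.33 in the clone and 1.39 in control cells (difference −1.72, SE 0.35, adjusted p = 0.00456). Without KO DMSO replicate 1, 7 genes of the list were called lower and 1 higher, and without KO VTP50469 replicate 3 there was 1 higher. Of 12 feedback and SOCS or PIM genes tested, 2 fell, DUSP6, a phosphatase of ERK (−2.15), and PIM2, a survival kinase (−1.12), and 5 fell without KO DMSO replicate 1. The share of 2 in 12 is near the 11.3% of all genes that were lower. SOCS2, a feedback inhibitor of cytokine signalling, had −0.57 (adjusted p = 0.0982; 0.0352 without KO DMSO replicate 2).

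Adhesion genes fell in the clone more often than they rose. Of 13 leukocyte integrin and adhesion genes tested, 6 fell and 2 rose (1 without KO DMSO replicate 3), with a median log2 fold change of −0.49, and in control cells 3 fell and 6 rose, with a median of 0.25. ITGB7, an integrin of gut-homing leukocytes, was at 30.2, 22.9 and 30.5 and then 13.7, 12.3 and 13.4 CPM (−1.08, SE 0.16, edgeR adjusted p = 3.11e-06), and in control cells it had −0.08 (difference −1.003, SE 0.23, adjusted p = 0.0116). ITGAL, the LFA-1 alpha chain, fell by 1.02 and SELPLG, the P-selectin ligand, rose by 1.05. CD44, the hyaluronan receptor, was at 20.9, 20.7 and 23.9 and then 17.7, 14 and 13.6 CPM in the clone (−0.54, adjusted p = 0.0561, 0.043 without KO DMSO replicate 1) and rose by 1.16 in control cells (difference −1.70, SE 0.34, adjusted p = 0.00489). LPXN, a focal adhesion adaptor, had −0.09 and 0.59 (difference −0.68, SE 0.17, adjusted p = 0.0284, above the threshold in 8 of 12 fits without 1 library, up to 0.089). Of 12 leukaemia surface antigens tested, 3 rose and 1 fell (3 without KO DMSO replicate 1). CD47, an inhibitor of phagocytosis, rose by 0.92, and with CLEC12A and FLT3 it stands among those that passed.

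Some lipid and amino acid synthesis genes fell in both genotypes. Of 20 cholesterol and fatty acid synthesis genes tested, 9 fell and none rose, with a median log2 fold change of −0.35, against 13 lower and a median of −0.63 in control cells, and with library size scaling 14 were lower in the clone. SREBF1, the master factor of fatty acid synthesis, went from 12.7, 11.3 and 20.9 to 3.99, 2.61 and 6.69 CPM (−1.72, SE 0.27, edgeR adjusted p = 1.69e-05), and SCD, the stearoyl-CoA desaturase, from 73.8, 122 and 158 to 39, 50.7 and 45.9 CPM (−1.38, SE 0.19, adjusted p = 1.98e-06). INSIG1, a sterol sensor, fell by 1.29 and FASN, fatty acid synthase, by 0.64. Of 24 ATF4 and amino acid response genes tested, 6 fell and 2 rose in the clone, with a median of −0.13 (1 higher without KO VTP50469 replicate 2 or 3 or KO DMSO replicate 3), and 11 fell and 2 rose in control cells. With library size scaling 1 was higher and 15 were lower in the clone. PHGDH, the first enzyme of serine synthesis, was at 35, 38.8 and 35.2 and then 22.5, 14.9 and 20.9 CPM in the clone and at 31.1, 40 and 35.7 and then 4.72, 5.57 and 7.45 CPM in control cells (−0.91 and −2.60, difference 1.69, SE 0.26, adjusted p = 0.000164). ALDH1L2, a mitochondrial folate enzyme, had −0.29 and −1.75 (difference 1.46, SE 0.33, adjusted p = 0.0124). SLC7A11, the cystine transporter, rose from 5.63, 6.4 and 4.22 to 25.3, 23.9 and 25.4 CPM (2.18, SE 0.19, adjusted p = 1.15e-10). Of 19 ribosome biogenesis genes, 3 fell and 2 rose (4 without KO DMSO replicate 1, 1 without KO VTP50469 replicate 2 or KO DMSO replicate 2), with a median of 0.02. These counts are near the 11.3% lower and 10.2% higher of all genes.

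Genes of the Polycomb and MLL complexes were read beside the 21.5% of all genes called, 10.2% higher and 11.3% lower. Among 10 PRC1.1 subunits, 3 fell and none rose, with a median log2 fold change of −0.22 in the clone and −0.16 in control cells, and with library size scaling 7 were lower. RYBP, a subunit of variant PRC1, was at 85.9, 105 and 81.6 and then 44.7, 54.3 and 51.9 CPM (−0.85, SE 0.11, edgeR adjusted p = 3.27e-07), and SKP1 fell by 0.42. KDM2B fell by 0.41 (adjusted p = 0.00896, 0.0893 without KO VTP50469 replicate 3), and BCOR had −0.22 (adjusted p = 0.256). Of 24 other PRC1 and PRC2 subunits, 4 rose and 4 fell, whereas with library size scaling none was higher and 12 were lower. The number of them higher lay between 1 and 3 and the number lower between 2 and 5 when 1 library was left out. EZH1, a methyltransferase of PRC2, rose by 0.83 and EZH2, its homologue of dividing cells, fell by 0.45. Among 16 genes of the MLL, Menin and DOT1L complexes, 2 rose and 1 fell, with a median of 0.29, and with library size scaling none was higher and 4 were lower. PSIP1 (LEDGF), which links Menin and MLL to chromatin, was at 122, 116 and 130 and then 189, 168 and 191 CPM (0.57, SE 0.09, adjusted p = 1.36e-05; difference from control cells 0.57, SE 0.13, adjusted p = 0.0105). MEN1 had 0.41 (adjusted p = 0.0143) but −0.03 with library size scaling, and it was not called without KO VTP50469 replicate 2 (0.0578) or KO DMSO replicate 3 (0.0792). The counts of this list were 1 to 4 higher and 0 or 1 lower when 1 library was left out.

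**Figure D5:**
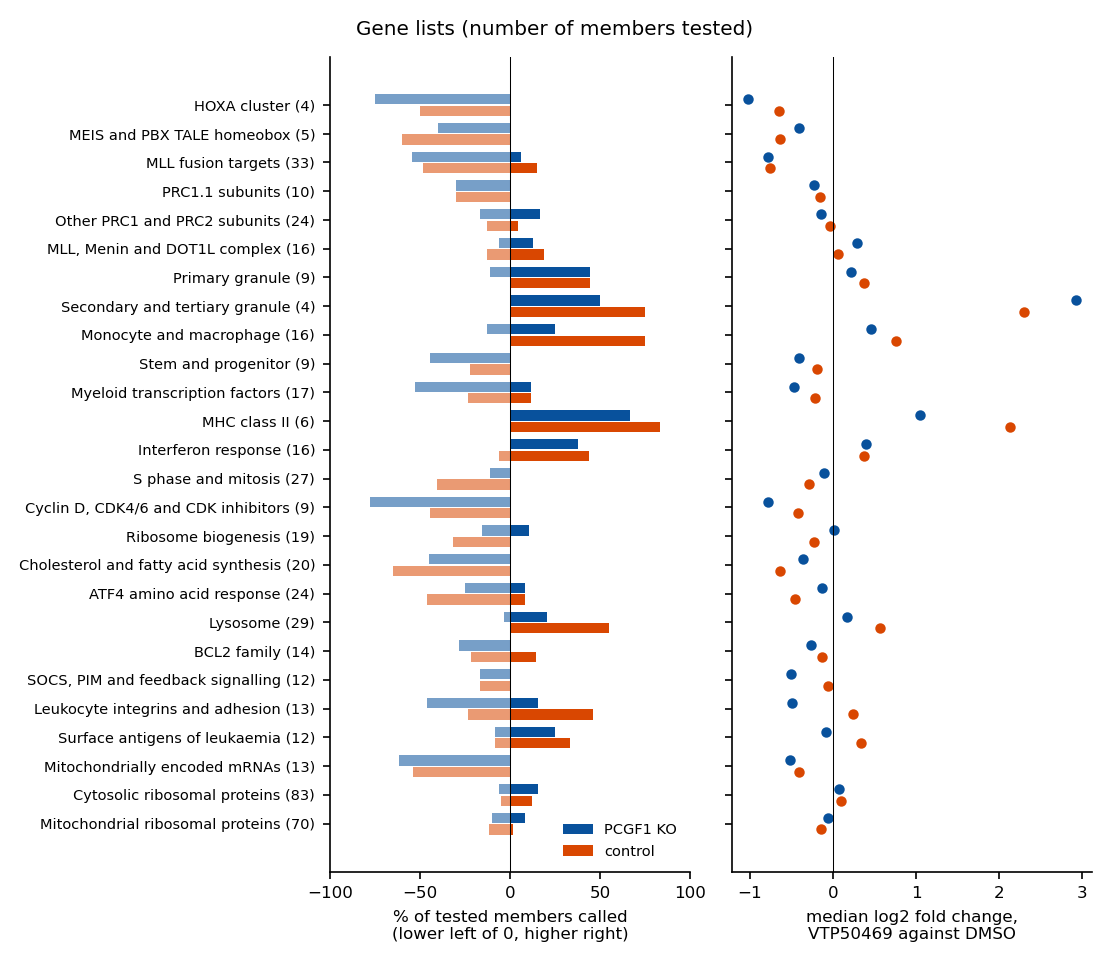
Share of tested members called (left, %, lower to the left of 0 and higher to the right) and median log2 fold change with VTP50469 against DMSO (right) for each gene list, with PCGF1 KO in blue and control cells in orange and the number of tested members in parentheses. HOXA and cyclin D and CDK inhibitor genes reach −1.02 and −0.78 in the clone, and MHC class II genes 1.04 against 2.13 in control cells.

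Small non-coding RNAs were among the largest rises. Of 25 snoRNAs tested 9 rose and none fell, and of 25 miscellaneous small RNAs 10 rose and 1 fell, against 981 (9.88%) higher and 1200 (12.1%) lower of 9928 protein-coding genes. A feature could pass the filter through VTP50469 libraries alone, and without reads in DMSO libraries it could then only rise. The counts of small RNAs that rose are therefore not evidence of a direction. RNA5SP202, a 5S ribosomal pseudogene, was at 3.34, 1.1 and 2.34 CPM with DMSO and 96.3, 105 and 59.3 CPM with VTP50469 (log2 fold change 5.28, SE 0.27, edgeR adjusted p = 9.73e-16). It rose by 5.36 in control cells. RNA5SP248, a further 5S pseudogene, had 2 counts with DMSO and 198 with VTP50469, a ratio of 118 with a 95% counting interval of 32.2 to 979. A Y_RNA feature on chromosome 12, 1 of 14 features with that name among the genes tested, had no counts with DMSO and 148 with VTP50469, at least 58.7-fold higher against 3 counts over the group. SNORD83A rose by 5.12, MIR663AHG, a host transcript of a microRNA, by 5.11, SNORD14E by 4.62, SNORD3A by 4.56, SNORD46 by 4.38 and 7SK by 4.20, and none of these had a difference of response past the threshold. Reads of such RNAs can be shared with near-identical copies. The share of counts on the 2 most abundant features, given above, was also higher with VTP50469 in the clone. In control cells that share was 38.9% to 44.3% with DMSO and 47.7% to 60.1% with VTP50469. RNA5SP202 was there at 4.29, 2.46 and 3.12 CPM and then at 148, 121 and 144 CPM. The part of this share in these rises was not tested.

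Mitochondrial transcripts moved in opposite directions by class. The ribosomal RNA MT-RNR2, at 28900 ± 1980 CPM with DMSO and 48100 ± 2550 CPM with VTP50469, rose (0.73, SE 0.10, edgeR adjusted p = 4.66e-07). MT-RNR1, also a ribosomal RNA, rose by 1.02 (SE 0.19, adjusted p = 0.000112). It was at 10600, 6700 and 3560 CPM with DMSO and 15200, 14000 and 13200 CPM with VTP50469, so the size of its rise depends on the DMSO library. Of 13 mitochondrially encoded mRNAs, a list added after the values were seen, 8 fell and none rose, with a median log2 fold change of −0.52 (5 fell and 1 rose without KO DMSO replicate 3, and 7 fell and 1 rose without KO VTP50469 replicate 2). MT-ATP6, a subunit of ATP synthase, was at 2430, 2530 and 3060 and then 1290, 1060 and 1420 CPM (−1.09, SE 0.10, adjusted p = 5.71e-10). MT-ATP8, which overlaps it, fell by 0.62, MT-ND2 by 0.85, MT-ND3 by 0.52 and MT-ND4 by 0.69. ACTB, cytoplasmic actin, fell by 0.52, at 2340, 1550 and 1490 and then 1200, 1260 and 1300 CPM. Of 83 cytosolic ribosomal protein genes, also listed afterwards, 13 rose and 5 fell, with a median of 0.07, and with library size scaling none was higher and 44 were lower. RPS3 (0.47), RPL27A (0.38), RPS12 (0.37) and RPLP1 (0.34) rose, the last 3 turning to −0.06, −0.09 and −0.13 with library size scaling. Without KO DMSO replicate 1 the counts of this family were 27 higher and 9 lower, and without KO VTP50469 replicate 1 they were 8 and 3. Of 70 mitochondrial ribosomal protein genes 6 rose and 7 fell (7 and 12 without KO DMSO replicate 1, 3 and 4 without KO DMSO replicate 3, 2 and 7 without KO VTP50469 replicate 2), with a median of −0.06, near the 10.2% higher and 11.3% lower of all genes. With library size scaling none of these 70 was higher and 35 were lower.

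The remaining large falls in the clone comprise genes that also fell in control cells. CDK6-AS1, at 9.59, 13.5 and 16.6 CPM with DMSO and 0.285, 0.948 and 0.223 CPM with VTP50469, fell by 4.67 on the log2 scale (SE 0.41, edgeR adjusted p = 1.44e-10), and the value in control cells was −5.20. The strand setting of the counting is not stated, so reads from a stretch that CDK6-AS1 shares with an overlapping gene cannot be assigned to either. SDC2, the heparan sulphate proteoglycan syndecan 2, went from 42.5, 43.3 and 49.7 to 6.84, 4.5 and 6.02 CPM (−2.97 in the clone and −2.82 in control cells). VAT1L had −2.71 and −2.58, and NKAPP1, a pseudogene, −2.67 and −2.02. In these 4 genes the differences of response lay between −0.66 and 0.52 and did not pass the threshold.

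MOLM13, a leukaemia line with an MLL-AF9 fusion, was measured in a separate table with PCGF1 KO libraries labelled with the same drug, and its values are set beside those of the MV4;11 clone without a test between the lines. In MOLM13 PCGF1 KO cells, 597 of 12140 genes (4.92%) rose and 406 (3.34%) fell with VTP50469, 8.26% in all. Of the genes higher in the MV4;11 clone and tested in both lines, 201 of 1009 (19.9%, and 36.4% of the 552 higher in MOLM13) had the same call, and of the lower ones 122 of 1204 (10.1%, and 35.7% of 342). Opposite calls were found for 12 (1.19%) and 58 (4.82%) genes. Of all 10354 genes tested in both lines, 5.33% were higher and 3.3% lower in MOLM13. The 4.82% is near the 5.33% and is not a trait of the lower genes. The log2 fold change of MEIS1 was −2.94 in MOLM13 and −3.23 in MV4;11, that of PBX3 −2.12 and −2.45, and that of CPEB2 −2.36 and −2.999. MEF2C had −2.21 and −5.58, and HOXA10 had 0.06 (edgeR adjusted p = 0.856) in MOLM13. Of the genes whose fall set the MV4;11 clone apart, TCF4 had −0.48 in MOLM13 PCGF1 KO cells, UGCG −0.03 (adjusted p = 0.952) and SOX4 0.00 (adjusted p = 0.996), while CDKN2C fell by 1.36. CLEC12A rose by 2.98, CYBB by 3.07 and HLA-DRA by 2.56. ITGB7 and TYROBP rose there by 2.15 and 0.54, where the MV4;11 clone had −1.08 and −0.88.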

How the data were processed

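RNA of MV4;11 and MOLM13 cells was read by 3′ RNA-seq, and per the labels the libraries were made by 3′Pool-seq or a Lexogen 3′ kit. The values are the deposited raw read counts per Ensembl gene, 1 table per line. In the study's methods reads were trimmed with bbmap, aligned to GRCh38 with STAR and analysed in Degust. The methods name STAR's own gene counts, the tables end with the total lines that HTSeq writes, and the strand setting is not given in the sources used here. Lines that name no gene held 22.9% to 29% of the counts in the 6 PCGF1 KO libraries and were left out, and 30 columns of the MV4;11 table that matched no sample used here were not used.

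A gene was kept when 2 libraries or more reached 2 CPM (11252, with symbols from GENCODE v44). One model over 18 MV4;11 libraries, 6 groups of 3, was fitted with edgeR 4.0.16 (quasi-likelihood test, TMM) in R 4.3.3, with Benjamini-Hochberg adjusted p under 0.05 as threshold, and 27 MOLM13 libraries apart. Levels are CPM on TMM-scaled library sizes. The SE is the absolute log2 fold change over the square root of F. Ratios of counts carry exact 95% intervals for counting error. The test was run on simulated data with 200 genes changed and counts drawn from the model's own estimates of spread. All groups had the same composition apart from these genes, so this does not check the scaling. The study calls its replicates biological, but no source used here says that they were separate cultures, so p-values measure the spread between these samples, which may be technical. No pair of replicates agreed within sampling noise.

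The members and gene lists were chosen with earlier results of these data known. Named genes were PCGF1, BCOR, genes the study names, list members, the 12 largest rises and 12 largest falls with a symbol, without overlap and with at least 10 CPM in the higher group, the 6 most abundant called genes per direction and the 6 largest differences of response per direction. Promoter windows were read from hg38 at GENCODE v44 canonical starts, although RefSeq windows had been planned. The mitochondrial and ribosomal protein lists were added after values were seen. Alternatives were other scalings, filters, thresholds, DESeq2, a replicate block, fits of only the libraries compared and leaving out each library. Some members of the lists are not reported here.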

Additional observations from a re-analysis of the deposited data

Results flagged for a closer look

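The response to VTP50469 differed between PCGF1 KO and control cells for 215 of 11252 genes by the interaction contrast of the edgeR model. Among the genes named above, the log2 difference of response was positive for MNDA (3.13), VIT (3.14), NAV3 (2.60), ST3GAL6 (2.49), IGLL1 (1.88), CORO2A (1.87), CLEC12A (1.81), PHGDH (1.69), ALDH1L2 (1.46), IGF2BP2 (1.23), MS4A3 (1.07), CDKN1A (0.83), XAF1 (0.80), REEP3 (0.70) and PSIP1 (0.57). It was negative for ITGB5 (−4.15), HIPK2 (−3.52), TCF4 (−2.92), UGCG (−2.80), SH3BGRL3 (−2.70), F2RL3 (−2.69), PTK2 (−2.57), BMF (−1.72), CD44 (−1.70), SOX4 (−1.69), CDKN2C (−1.58), FCER1G (−1.55), RUNX2 (−1.41), HLA-DRA (−1.29), ITGB7 (−1.0), IRF8 (−0.94), CTSB (−0.78), PSAP (−0.78), TYROBP (−0.70), LPXN (−0.68), CD74 (−0.65), RUNX3 (−0.63) and ID2 (−0.52). The PCGF1 KO libraries come from 1 clone, so clone and genotype cannot be told apart in any of these differences.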

How the results depend on the processing

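With library size alone as scaling, the genes called were 4911 in the PCGF1 KO clone (367 higher, 4544 lower), 4460 in control cells (451, 4009) and 78 for the difference of response (22, 56), the median of all genes moved to −0.451 and −0.411, and RPL27A (−0.06), RPLP1 (−0.13), RPS12 (−0.09) and MEN1 (−0.03) turned sign. With only the libraries compared, 1341 genes (629, 712) were called in the clone and 121 (36, 85) for the difference, and in MOLM13 268 were lower. Leaving out 1 library gave 1700 to 2815 genes in the clone (823 to 1298 higher, 877 to 1517 lower), 1767 to 1987 in control cells (924 to 1070, 835 to 977), 153 to 647 for the difference (50 to 310, 101 to 337), with 647 without KO DMSO replicate 1, 692 to 845 in MOLM13 (397 to 480, 269 to 365) and −1.59 to −0.62 for the PCGF1 transcript. Library size without the 2 most abundant features gave 1034 and 1394 in the clone and moved the share of higher calls from 35.3% to 47.3% for the difference and from 50.3% to 37.9% in control cells. Replicate numbers shared no deviation (r −0.0513 to −0.0108 in the clone, 0.0306 to 0.0559 in control cells), and a fit with a replicate block gave 1140 and 1246 genes in the clone and 74 and 136 for the difference. The cause of these shifts was not tested. Few counts per library limit genes near 1 CPM.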
